A study of Mus musculus with 177 samples.

Results

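The core circadian clock genes are a set of 10 genes, Arntl (also written Bmal1), Clock, Per1, Per2, Per3, Cry1, Cry2, Nr1d1, Nr1d2 and Dbp, out of 19937 genes measured. They were chosen by name with earlier results of these data known, so shares of members set beside shares of all genes are a description. Each gene was read from the probe set that the array annotation gives to it alone, which was 1 probe set for every member in every tissue. All 10 were measured in lung, brain and eye, and no filter on low values was applied.

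The samples were whole lung, brain and eye of C57BL/6 mice killed at postnatal day 7, each hybridised to 1 expression array. In 4 hypoxia groups, pups breathed an oxygen fraction of 0.08 for 120 min and then 21, 40, 60 or 100% oxygen for 30 min (H21, H40, H60 and H100). In 2 normoxia groups, pups breathed air, an oxygen fraction of 0.21, for 120 min and then 100 or 21% oxygen for 30 min (N100 and N21). All 6 groups then spent 150 min in air, so every sample was taken after recovery, and the clock hour of sampling is not given in the sources used here. Lung had 9, 10, 12, 11, 10 and 9 arrays in H21, H40, H60, H100, N100 and N21, brain 9, 10, 11, 11, 9 and 9, and eye 9, 10, 9, 11, 9 and 9, 177 in all. Nothing in the labels ties an array to 1 animal or to 1 extract, so p-values measure the spread between these samples.

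The mammalian clock is a feedback loop of transcription. The proteins of Arntl and Clock pair up and switch on the Per, Cry and Nr1d genes through E-box letters in DNA, the PER and CRY proteins return to the nucleus and inhibit that pair, and the REV-ERB proteins of Nr1d1 and Nr1d2 repress Arntl. Dbp is an output of the loop that binds D-box letters, and Per1 is also known as an early responder to glucocorticoids.

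The promoters of 3 members that hold the full E-box or D-box letters are shown because these letters are where the loop is known to act. RefSeq (GRCm38.p6) lists 13 promoter windows of 300 bases for 9 of the members, all but Per2. Among all 32851 promoter windows, CACGTG, the E-box, which reads the same on both strands, lay in 7.15%, and among the members' windows it lay in those of Cry1 and the first start site of Per1. TTATGTAA, the D-box, searched on both strands, lay in 0.938% of all windows and at 2 positions in that of Per3, and TGACGTCA, the cAMP response element, also the same on both strands, lay in 1.79% of all windows and in 0 of the members' windows. Other letters were also searched on both strands. AGGTCA, the RORE core, lay in 16.3% of all windows and in 4 of the 13 members' windows, including a window of Arntl. TGACG, a part of the cAMP response element, lay in 20.8% of all windows and in 4 of the 13. None of the members' windows holds both the E-box and the D-box. The capitals mark the E-box, 60 bases before the start in Cry1 and 166 bases before it in Per1, and in Per3 the D-boxes, 205 and 158 bases before the start. The windows are chr10:85185005-85185304 on the minus strand for Cry1, chr11:69098699-69098998 on the plus strand for Per1 and chr4:151044616-151044915 on the minus strand for Per3.
Cry1: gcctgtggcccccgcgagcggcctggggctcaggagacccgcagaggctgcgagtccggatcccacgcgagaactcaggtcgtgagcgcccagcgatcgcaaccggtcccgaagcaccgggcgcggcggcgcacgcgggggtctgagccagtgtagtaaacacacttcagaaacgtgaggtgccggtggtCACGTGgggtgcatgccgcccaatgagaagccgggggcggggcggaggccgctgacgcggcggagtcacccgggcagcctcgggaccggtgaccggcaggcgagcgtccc
Per1: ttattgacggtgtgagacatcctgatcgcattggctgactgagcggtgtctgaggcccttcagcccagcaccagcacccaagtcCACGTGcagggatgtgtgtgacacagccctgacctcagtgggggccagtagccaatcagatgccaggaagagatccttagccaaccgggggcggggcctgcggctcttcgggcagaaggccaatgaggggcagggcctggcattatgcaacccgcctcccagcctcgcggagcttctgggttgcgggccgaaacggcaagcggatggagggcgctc
Per3: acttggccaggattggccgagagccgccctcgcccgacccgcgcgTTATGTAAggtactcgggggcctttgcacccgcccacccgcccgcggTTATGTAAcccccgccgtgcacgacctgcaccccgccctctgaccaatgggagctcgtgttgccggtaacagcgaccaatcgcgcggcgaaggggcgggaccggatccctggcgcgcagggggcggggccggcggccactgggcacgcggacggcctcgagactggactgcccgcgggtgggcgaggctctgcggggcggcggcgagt
A match describes the letters of a window and was not tested as a binding site.

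Values are log2 levels normalised by RMA within each tissue, and a difference is a log2 difference. The median level over all probe sets was 6.25 in lung, 6.07 in brain and 6.35 in eye. Per tissue, 1 array, always of H40, resembled another tissue more than its own: lung H40 replicate 10 the brain, brain H40 replicate 7 the eye and eye H40 replicate 9 the lung. These 3 arrays were left out, which left 60, 58 and 56, and results that change with them are given both ways. In the order of the series' sample records, the last 64 of the 177 form a separate later run, and the labels do not say what it is. Every group has arrays in both, but N100 lies mostly in the first. N100 has 8 arrays in the first and 2 in the later in lung, and 8 and 1 in brain and in eye. H100 has 6 and 5 in each tissue, so comparisons with N100 are not balanced between the record sets. The levels of many genes differ between the record sets, and values within each of them stand beside the results. The number of arrays limits the precision. In whole tissue, fewer cells of a type and less RNA per cell cannot be told apart.

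In lung, the repressors Cry1, Cry2 and Per2 and the activator Arntl were higher after hypoxia, and the REV-ERB genes Nr1d1 and Nr1d2 were lower. With all 41 hypoxia arrays set against all 19 normoxia arrays, 6 of the 10 members passed (limma, Benjamini-Hochberg adjusted p below 0.05 over all genes), against 1.66% of all genes tested. Among the members 4 were higher, a call that 1.05% of genes had, and 2 were lower, a call that 0.607% of genes had. The median difference was 0.13 over the members and 0.01 over all genes. At an unadjusted p below 0.05, 9 of the 10 members passed, Clock being the exception, against 9% of all genes.

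**Figure D1:**
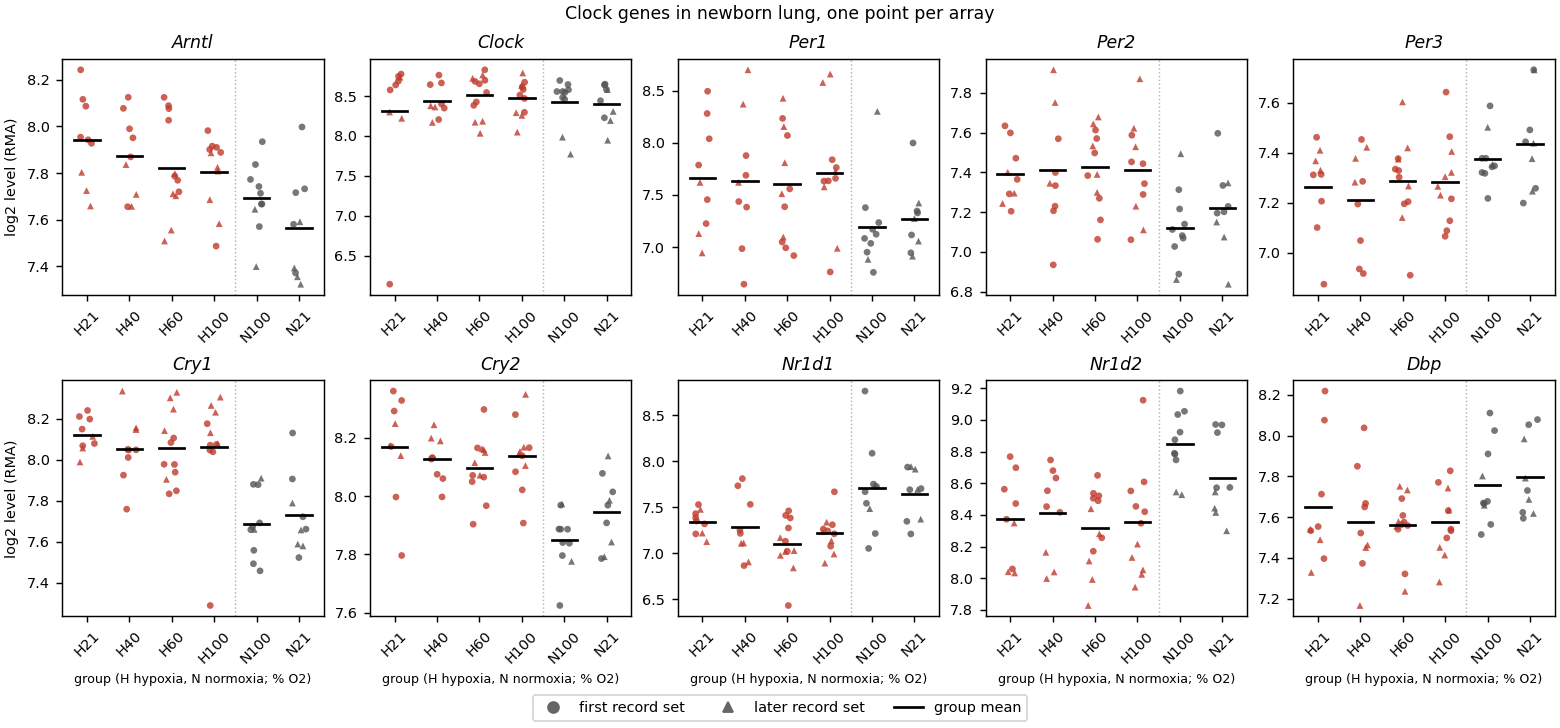
Log2 level of each clock gene in lung (y axis) by group (x axis, H groups left of N groups), 1 point per array, circles for the first record set, triangles for the later one, and a bar for the group mean. Cry1 lies near 8.08 in hypoxia arrays, above most normoxia arrays near 7.66, while Nr1d2 lies lower in hypoxia arrays, with a median of 8.42 against 8.78.

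Arntl, whose protein is the indispensable activator of the loop, ran in lung from 7.49 over a median of 7.87 to 8.24 in hypoxia arrays, and from 7.32 over 7.67 to 7.997 in normoxia arrays. The ranges overlapped, and 37 of 41 hypoxia arrays lay above the normoxia mean. The difference was 0.23 ± 0.05 (SE, limma adjusted p = 0.0063). Group medians of Arntl were 7.94, 7.87, 7.78 and 7.89 in H21, H40, H60 and H100, against 7.69 in N100 and 7.58 in N21.

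Clock, the partner of Arntl, ran from 6.14 over a median of 8.55 to 8.83 in hypoxia arrays of lung and from 7.77 over 8.55 to 8.70 in normoxia arrays. The lowest value belonged to 1 array, H21 replicate 1, and the other hypoxia arrays covered about the range of the normoxia arrays. The difference of Clock was 0.02 ± 0.11 (SE, limma adjusted p = 1.00), with a 95% interval of -0.19 to 0.23.

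Cry1, which encodes the strongest repressor of the activator pair, had the smallest p-value among the members in lung. It ran from 7.29 over 8.08 to 8.33 in hypoxia arrays and from 7.46 over 7.66 to 8.13 in normoxia arrays. Of the 41 hypoxia arrays, 40 were above the normoxia mean and 16 above every normoxia array, although the lowest array of all was also a hypoxia array. The difference of Cry1 was 0.37 ± 0.05 (SE, limma adjusted p = 5.3e-06). Group medians of Cry1 were 8.11, 8.05, 8.03 and 8.08 in H21, H40, H60 and H100, against 7.67 in N100 and 7.66 in N21, so every hypoxia group's median was above both normoxia medians.

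Cry2, the second cryptochrome and a repressor of the same pair, ran in lung from 7.80 over 8.14 to 8.36 in hypoxia arrays and from 7.62 over 7.89 to 8.14 in normoxia arrays. Again 40 of 41 hypoxia arrays were above the normoxia mean, and 22 were above every normoxia array. The difference of Cry2 was 0.24 ± 0.04 (SE, limma adjusted p = 2.5e-05), and group medians were 8.17, 8.13, 8.09 and 8.14 in H21, H40, H60 and H100, against 7.86 in N100 and 7.97 in N21. Both cryptochromes were thus higher in lung after hypoxia.

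Per2, a period gene whose protein joins the cryptochromes, ran from 6.94 over 7.39 to 7.92 in hypoxia arrays of lung and from 6.84 over 7.15 to 7.60 in normoxia arrays. Most hypoxia arrays, 36 of 41, were above the normoxia mean, and the ranges overlapped. The difference of Per2 was 0.24 ± 0.06 (SE, limma adjusted p = 0.019), the weakest of the calls. It was 0.22 with an adjusted p of 0.13 when the lung array of brain profile was kept.

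Per1, the period gene that answers hormones, was the most variable member in lung. It ran from 6.64 over 7.63 to 8.70 in hypoxia arrays and from 6.76 over 7.12 to 8.30 in normoxia arrays, and 30 of 41 hypoxia arrays were above the normoxia mean. The difference of Per1 was 0.42 ± 0.14 (SE, 95% interval 0.15 to 0.70, limma adjusted p = 0.12) and did not pass. It was 0.49 with an adjusted p of 0.040 without N100 replicate 9, the highest normoxia array.

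Per3, a period gene that is not required for the loop, ran from 6.87 over 7.30 to 7.64 in hypoxia arrays of lung and from 7.20 over 7.38 to 7.73 in normoxia arrays. Its difference of -0.14 ± 0.05 (SE, limma adjusted p = 0.16) did not pass and had the opposite sign to those of Per1 and Per2. In all, 32 of 41 hypoxia arrays were below the normoxia mean of Per3.

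Nr1d1, which encodes REV-ERB alpha, the repressor of Arntl, ran from 6.43 over 7.22 to 7.81 in hypoxia arrays of lung and from 7.05 over 7.69 to 8.76 in normoxia arrays. Of the hypoxia arrays, 39 of 41 were below the normoxia mean and 10 below every normoxia array. The difference of Nr1d1 was -0.44 ± 0.08 (SE, limma adjusted p = 0.00057). Group medians of Nr1d1 were 7.35, 7.22, 7.08 and 7.23 in H21, H40, H60 and H100, against 7.70 in N100 and 7.69 in N21.

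Nr1d2, which encodes the partly redundant REV-ERB beta, ran from 7.83 over 8.42 to 9.12 in hypoxia arrays of lung and from 8.30 over 8.78 to 9.18 in normoxia arrays. Here 38 of 41 hypoxia arrays were below the normoxia mean and 17 below every normoxia array. The difference of Nr1d2 was -0.38 ± 0.07 (SE, limma adjusted p = 0.0012), with group medians of 8.37, 8.45, 8.36 and 8.35 in H21, H40, H60 and H100, against 8.83 in N100 and 8.57 in N21. Both REV-ERB genes were thus lower in lung after hypoxia.

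Dbp, the output factor, ran from 7.17 over 7.56 to 8.22 in hypoxia arrays of lung and from 7.52 over 7.69 to 8.11 in normoxia arrays. Its difference was -0.19 ± 0.06 (SE, 95% interval -0.31 to -0.07, limma adjusted p = 0.10), with 36 of 41 hypoxia arrays below the normoxia mean. Without H21 replicate 1, Dbp passed, at -0.21 with an adjusted p of 0.031, and without H40 replicate 3 it was -0.20 with an adjusted p of 0.049.

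The record set was then fitted as a block. The same 6 members passed in lung, where 2.21% of all genes did, with Arntl at 0.25 (limma adjusted p = 0.00014), Cry1 at 0.36 (2.4e-06), Cry2 at 0.23 (1.6e-05), Per2 at 0.24 (0.016), Nr1d1 at -0.43 (0.00052) and Nr1d2 at -0.35 (6.0e-06). Within the first record set alone, of 38 arrays, Nr1d2 was the 1 member that passed, at -0.34 (limma adjusted p = 0.027), against 0.115% of all genes. The other called members there were Arntl at 0.24 (0.091), Cry1 at 0.29 (0.054), Cry2 at 0.21 (0.072), Per2 at 0.15 (0.58) and Nr1d1 at -0.34 (0.34). Within the later record set, of 22 arrays, Cry1 at 0.44 and Nr1d1 at -0.56 passed, both with a limma adjusted p of 0.0081, against 0.191% of all genes. The rest there were Arntl at 0.25 (0.25), Cry2 at 0.27 (0.11), Per2 at 0.35 (0.47) and Nr1d2 at -0.38 (0.067), so all 6 kept their direction in both record sets.

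Markers of brown fat and skeletal muscle varied widely between lung arrays. The 3 brown fat markers ranged in lung, as log2 of their summed level, from 7.05 to 12.2 over the hypoxia groups, with group medians of 7.70, 8.16, 7.39 and 7.67 in H21, H40, H60 and H100. The medians were 9.53 in N100 and 8.31 in N21, with values between 7.24 and 11.1. None of the 3 passed (limma, 0 at an unadjusted p below 0.05), and Ucp1, the thermogenic uncoupling protein, differed by -0.86 ± 0.54 (SE, limma adjusted p = 0.76). The 4 skeletal muscle markers ranged from 8.50 to 12.5 in hypoxia groups and from 8.50 to 13.1 in normoxia groups, and 0 of 4 passed (limma, 0 at an unadjusted p below 0.05). With both marker levels as covariates, an alternative chosen after seeing the data, the same 6 members passed in lung, with Nr1d1 at -0.39 (adjusted p = 0.0021), Nr1d2 at -0.35 (0.0059), Arntl at 0.23 (0.014), Cry1 at 0.34 (6.7e-05), Cry2 at 0.23 (0.00020) and Per2 at 0.23 (0.047). Of the 8 brain markers, Stmn2, a neuronal microtubule regulator, was higher in lung after hypoxia, by 0.30 ± 0.07 (SE, limma adjusted p = 0.0072), and its part in the results was not tested. Of the 8 lung markers, 0 passed (limma, 2 at an unadjusted p below 0.05), and their summed log2 level lay between 15.4 and 15.9 in every group. Of 7 eye markers and 2 red cell markers, 0 passed, with 1 and 0 at an unadjusted p below 0.05.

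In brain and eye, none of the 10 members passed in the same comparison. In brain, 0 of 10 passed (limma), against 0.0853% of all genes, and 3 of 10 had an unadjusted p below 0.05, against 3.18% of all genes, with a median difference of -0.04 over the members and 0.00 over all genes. In eye, 0 of 10 passed, against 0.0853% of all genes, and 3 of 10 had an unadjusted p below 0.05, against 5.02% of all genes, with medians of 0.01 over the members and 0.00 over all genes.

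**Figure D2:**
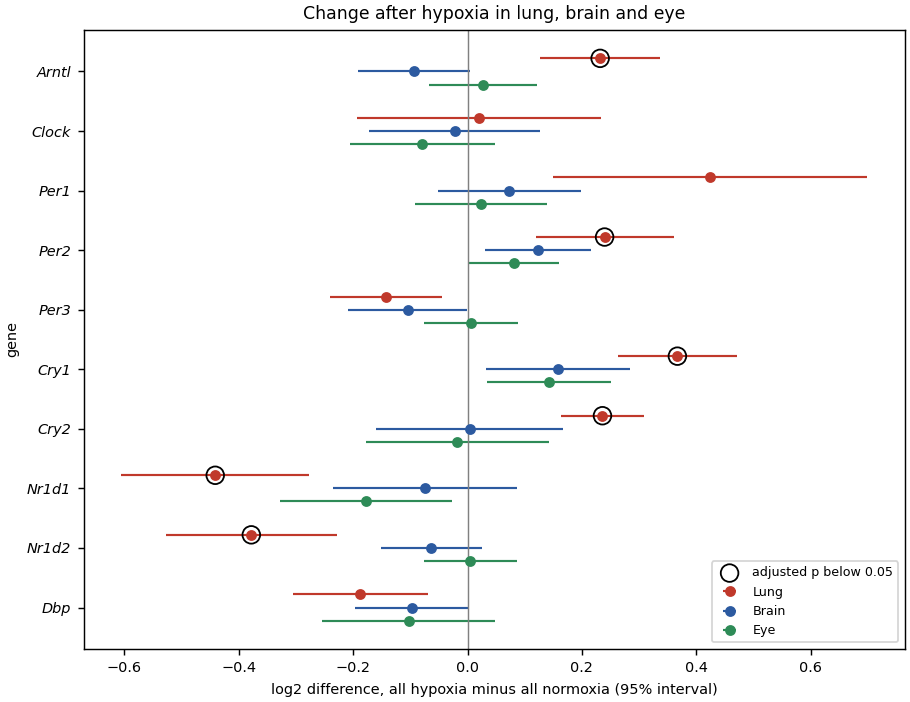
Log2 difference of each clock gene, all hypoxia minus all normoxia (x axis, points with 95% intervals), by gene (y axis) and tissue (colour), with rings around changes of adjusted p below 0.05. All 6 rings are in lung, at Arntl, Per2, Cry1, Cry2, Nr1d1 and Nr1d2, and the brain and eye points lie between -0.18 and 0.16.

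In brain, Cry1 ran from 7.26 over 7.68 to 8.47 in hypoxia arrays and from 7.28 over 7.47 to 8.25 in normoxia arrays. Its difference was 0.16 ± 0.06 (SE, limma adjusted p = 1.00), with a 95% interval of 0.03 to 0.28, and 33 of 40 hypoxia arrays were above the normoxia mean. Per2 in brain differed by 0.12 ± 0.05 (SE, 95% interval 0.03 to 0.22, limma adjusted p = 1.00), with 34 of 40 above, and ran from 6.00 over 6.37 to 6.67 in hypoxia arrays and from 5.80 over 6.26 to 6.57 in normoxia arrays. Arntl in brain ran from 7.77 over 8.09 to 8.41 in hypoxia arrays and from 7.88 over 8.18 to 8.57 in normoxia arrays. The ranges of Cry1, Per2 and Arntl all overlapped there, and the estimate for Arntl was negative in brain, at -0.09 ± 0.05 (SE, 95% interval -0.19 to 0.00). Per3 differed in brain by -0.10 ± 0.05 (SE, limma adjusted p = 1.00), and the remaining members lay between -0.10 for Dbp and 0.07 for Per1.

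In eye, Cry1 ran from 7.70 over 8.10 to 8.90 in hypoxia arrays and from 7.76 over 7.96 to 8.34 in normoxia arrays. Its difference was 0.14 ± 0.05 (SE, 95% interval 0.03 to 0.25, limma adjusted p = 0.71). Nr1d1 in eye ran from 7.68 over 8.33 to 8.92 in hypoxia arrays and from 7.90 over 8.47 to 9.22 in normoxia arrays, and differed by -0.18 ± 0.07 (SE, 95% interval -0.33 to -0.03, limma adjusted p = 0.85), with 27 of 38 hypoxia arrays below the normoxia mean. Per2 in eye differed by 0.08 ± 0.04 (SE, limma adjusted p = 0.99). Arntl in eye, with medians of 9.40 in hypoxia arrays and 9.35 in normoxia arrays, differed by 0.03 (95% interval -0.07 to 0.12), and Nr1d2 by 0.01 (-0.08 to 0.09). The remaining members in eye lay between -0.10 for Dbp and 0.02 for Per1. The estimates of Cry1 and Per2 were thus positive in all 3 tissues and passed in lung.

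Whether the change differed between tissues was tested in 1 fit of 174 arrays. With 62 mice in the design, most mice must have given several of these tissues, but the labels do not say which arrays share a mouse, so the fit treats arrays as independent and its p-values do not account for the sharing. Between lung and brain, 2 of 10 members passed, against 0.451% of all genes: Arntl, whose change was larger in lung by 0.33 ± 0.07 (SE, limma adjusted p = 0.0033), and Nr1d2, whose change was more negative in lung, by -0.31 ± 0.08 (SE, adjusted p = 0.030). Between lung and eye, 1 of 10 passed, against 0.396% of all genes, Nr1d2 at -0.38 ± 0.08 (SE, adjusted p = 0.0024). Between brain and eye, 0 of 10 passed (limma), against 0.0100% of all genes, and 0 had an unadjusted p below 0.05, against 3% of all genes. For Cry1 the lung change exceeded that of brain by 0.21 ± 0.08 (SE, adjusted p = 0.48) and that of eye by 0.22 ± 0.08 (SE, adjusted p = 0.37), so the difference between tissues did not pass for Cry1. With the record set as a block, the same 3 differences passed, and with the 3 arrays of another tissue's profile kept, 0 passed in any pair of tissues.

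The oxygen given after hypoxia was examined next. These comparisons share the N21 arrays, so their differences are given side by side in lung. Cry1 differed from N21 by 0.39, 0.32, 0.33 and 0.34 in H21, H40, H60 and H100 and by -0.04 in N100. Arntl differed by 0.38, 0.31, 0.26, 0.24 and 0.13 in the same order, and Nr1d1 by -0.31, -0.36, -0.55, -0.43 and 0.06. No member passed in H21, H40, H60, H100 or N100 against N21 (limma), where 0.0502%, 0.00502%, 0%, 0.0201% and 0% of all genes passed, and 6, 6, 7, 7 and 0 members had an unadjusted p below 0.05. At that unadjusted threshold 5.49%, 4.67%, 3.49%, 3.39% and 1.65% of all genes passed. With the record set as a block, Arntl at 0.35 (adjusted p = 0.016) and Cry1 at 0.41 (0.017) passed in H21 against N21, where 0.161% of all genes did.

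**Figure D3:**
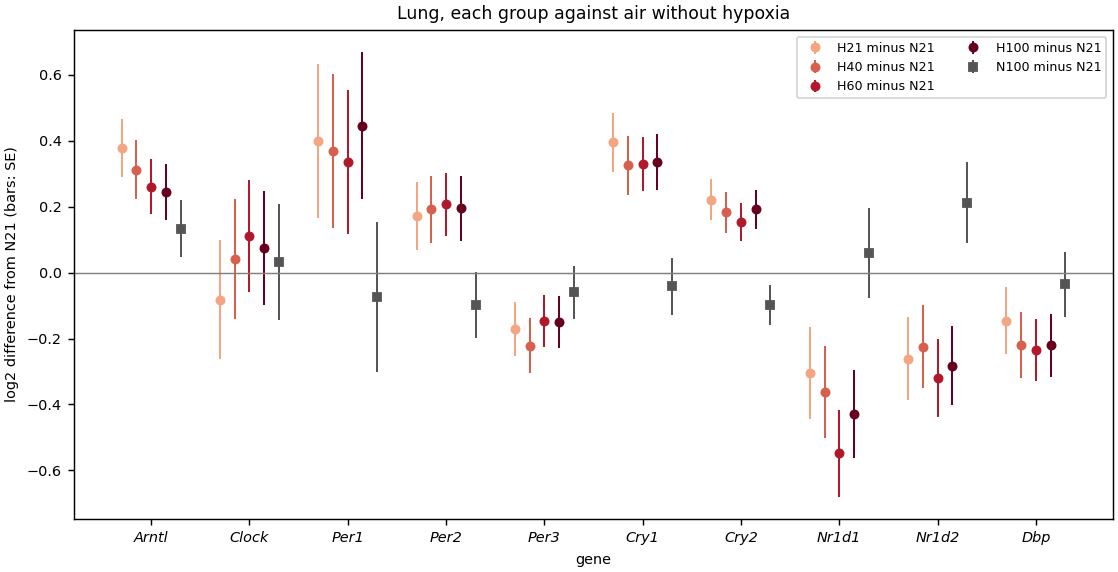
Log2 difference of each clock gene from N21 in lung (y axis, bars are SE) by gene (x axis), circles for H21, H40, H60 and H100 and squares for N100. For Cry1 the 4 hypoxia groups lie between 0.32 and 0.39 and N100 at -0.04.

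Under the same 100% oxygen, H100 against N100, 2 of 10 members passed in lung, both higher, against 0.105% of all genes. They were Cry1 at 0.38 ± 0.08 (SE, limma adjusted p = 0.033) and Cry2 at 0.29 ± 0.06 (SE, adjusted p = 0.012). Nr1d2 at -0.49 ± 0.12 (SE, adjusted p = 0.062) did not pass, and with the record set as a block it did, at -0.39 (limma adjusted p = 0.016, with 0.130% of all genes passing). With the lung array of brain profile kept, and within either record set, 0 of 10 passed. The later record set has 5 H100 and 2 N100 arrays in lung, so the fit within it can decide little. With the fat and muscle covariates 1 of 10 passed.

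In H100 against N100, in brain 0 of 10 passed (limma, 0.0100% of all genes) and in eye 0 of 10 (0% of all genes), with 4 and 2 members at an unadjusted p below 0.05, against 4.55% and 8.7% of all genes. With the record set as a block, 0 of 10 passed in brain (limma), against 0.0150% of all genes, with 2 members at an unadjusted p below 0.05, against 2.75% of all genes. In eye, 0% of all genes passed with the block, and 2 members had an unadjusted p below 0.05, against 7.65% of all genes. Without the block, Nr1d1 in eye differed by -0.33 ± 0.12 (SE, limma adjusted p = 0.44) in H100 against N100.

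Across 21 to 100% oxygen after hypoxia, the fitted slope gave a change of -0.13 ± 0.08 (SE) for Arntl and of -0.04 ± 0.08 (SE) for Cry1 in lung. No member passed for the slope in lung, brain or eye (limma, 0% of all genes in each), and 0 had an unadjusted p below 0.05 in any of them, against 1.74%, 6.45% and 5.71% of all genes. The 95% interval of the slope was -0.29 to 0.03 for Arntl and -0.39 to 0.12 for Nr1d1 in lung. In brain and eye, 0 of 10 members passed in every comparison of a single group with N21 (limma), where at most 0.00502% of all genes passed. At most 1 member had an unadjusted p below 0.05 in any of these comparisons. At that unadjusted threshold 1.33% to 4.04% of all genes passed in brain and 2.11% to 5.4% in eye.

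The record sets themselves separated many members. In the later record set, Arntl was lower in all 3 tissues, with differences of -0.23 ± 0.04 in lung (SE, limma adjusted p = 6.5e-06), -0.26 ± 0.04 in brain (4.6e-08) and -0.18 ± 0.04 in eye (0.00038). Cry1 was higher, by 0.11 ± 0.05 in lung (SE, adjusted p = 0.048), 0.31 ± 0.05 in brain (5.6e-07) and 0.18 ± 0.05 in eye (0.0024). Nr1d2 in lung differed by -0.41 ± 0.05 (SE, adjusted p = 9.6e-10), a size close to that after hypoxia. Members passing numbered 4 of 10 in lung, 5 in brain and 5 in eye, against 56.5%, 44.8% and 38.7% of all genes, so the members' share was near that background.

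**Figure D4:**
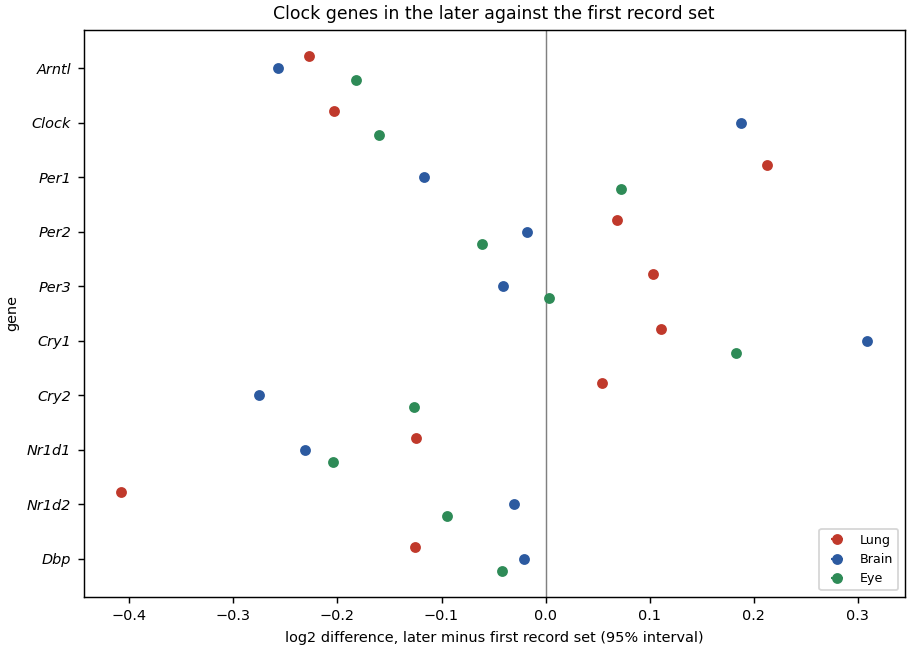
Log2 difference of each clock gene, later minus first record set (x axis), by gene (y axis) and tissue (colour). The axis label names an interval, but none was computed for this comparison, so the points stand without bars and their uncertainty is not shown. Arntl lies at -0.23, -0.26 and -0.18 in lung, brain and eye, and Cry1 at 0.11, 0.31 and 0.18.

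Other genes of the clock were counted in the same way. Of 25 further clock genes listed, 22 were measured, and 0 of 22 passed in lung (limma, 2 at an unadjusted p below 0.05), with a median difference of 0.00 against 0.01 over all genes. Of all genes in lung, 1.66% passed and 9% had an unadjusted p below 0.05, so these counts were near that background. Bhlhe40, a repressor of the activator pair, was -0.20 ± 0.07 (SE, adjusted p = 0.19), and the D-box factors Tef at 0.06 and Hlf at 0.04 also did not pass. In brain and eye, 0 of 22 passed as well (limma, 2 at an unadjusted p below 0.05 in each), with medians of -0.01 in each. Of all genes, 0.0853% passed in each, and 3.18% in brain and 5.02% in eye had an unadjusted p below 0.05.

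Because Per1 is known to respond to glucocorticoids, hormone-induced genes were counted beside it in lung. Whether a hormone caused any of the changes was not tested. Of 7 measured, 3 passed and were higher: the kinase Sgk1 at 0.48 ± 0.08 (SE, limma adjusted p = 0.00017), the leucine zipper gene Tsc22d3 at 0.42 ± 0.11 (0.022) and the kinase Map3k6 at 0.38 ± 0.09 (0.0077), with a median of 0.42 over the 7 against 0.01 over all genes. Fkbp5 at 0.45 (0.075) and Klf9 at 0.32 (0.096) did not pass, and Per1 itself did not. In brain 1 of 7 passed, Fkbp5 at 0.29 ± 0.06 (SE, adjusted p = 0.0065), and in eye 0 of 7 did (limma, 3 at an unadjusted p below 0.05). Of all genes, 1.66% passed in lung and 0.0853% in brain and in eye. Of 8 immediate-early genes 1 passed in lung, the phosphatase gene Dusp1 at 0.35 ± 0.08 (SE, adjusted p = 0.0095), and 0 of 8 in brain and in eye (0 and 1 at an unadjusted p below 0.05).

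Members were then followed across arrays of 1 tissue, after subtraction of group means. These r values are a description, since arrays share their record set and their RNA quality. Per1 and Per2 went together most closely in lung, at r = 0.84 over 60 arrays. In brain Cry2 went with Per1 at 0.67 and against Cry1 at -0.68 over 58 arrays, and in eye Cry2 went with Dbp at 0.82 over 56 arrays. Single arrays far from their group enter these r values. In brain H21 replicate 8 Cry2 and Per1 were both low, at 7.64 and 6.71. In brain N21 replicate 7 Cry2 was low at 7.84 and Cry1 high at 8.25. In eye N21 replicate 7 Cry2 and Dbp were both low, at 7.34 and 7.37. The r values without such arrays were not computed.

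**Figure D5:**
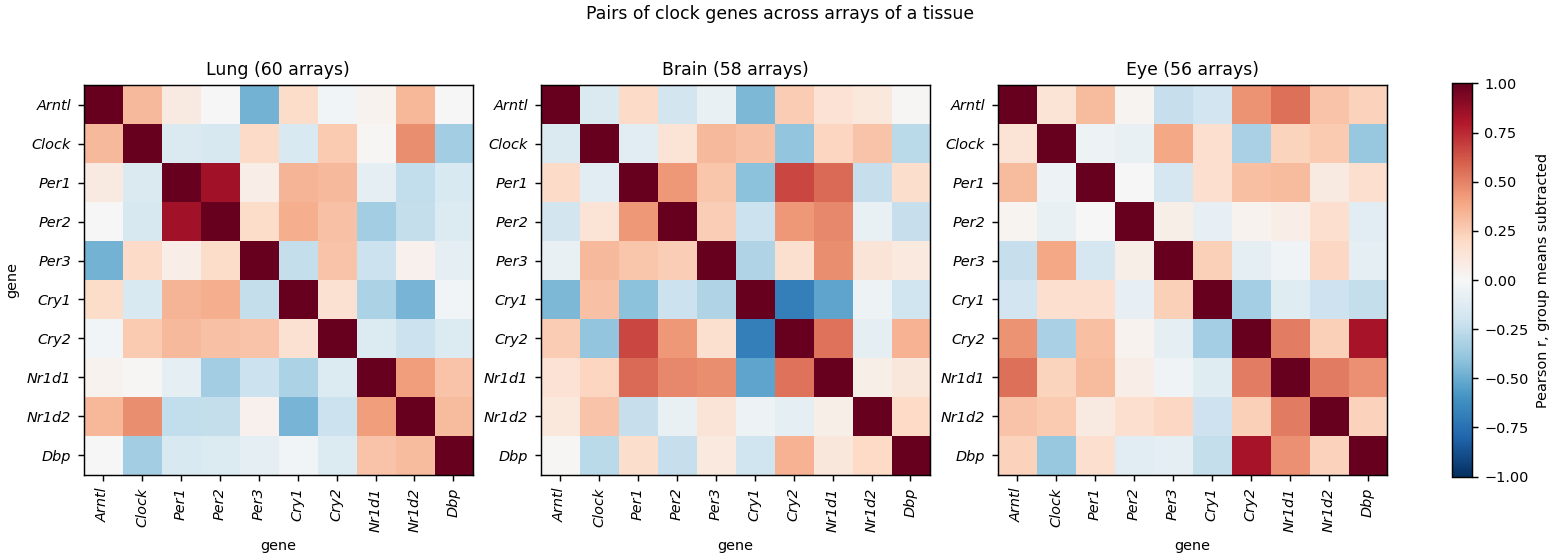
Pearson r between each pair of clock genes (both axes are genes) across arrays of lung, brain and eye, after subtraction of group means, on a colour scale from -1 to 1. The strongest pairs are Per1 with Per2 in lung at 0.84 and Cry2 with Dbp in eye at 0.82.

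Arntl was set against each other member, 27 relations in all, with permutation tests. Over both record sets only group means were subtracted and arrays were permuted across the sets. Those p-values therefore also take in shifts between the record sets, and the values within each set are free of them. In eye it went with Nr1d1 at r = 0.55 and rho = 0.55 (permutation p = 3.0e-05 and 2.0e-05, adjusted 0.00081 and 0.00054), at 0.52 without the 2 arrays farthest from the median of Arntl. Within the first and later record sets r was 0.47 (adjusted permutation p = 0.027) and 0.34 (0.42). In lung Arntl ran against Per3 at r = -0.47 and rho = -0.46 (permutation p = 0.00019 and 0.00033, adjusted 0.0026 and 0.0022), at -0.49 without the farthest arrays, but at -0.45 and -0.12 within the record sets. In brain it ran against Cry1 at r = -0.45 and rho = -0.47 (permutation p = 0.00040 and 0.00023, adjusted 0.0035 and 0.0021), at -0.48 without the farthest arrays, yet r was 0.32 within the first record set and -0.11 within the later one, so this relation did not hold within record sets. The relation of Arntl with Cry2 in eye, r = 0.45 and rho = 0.41 (permutation p = 0.00052 and 0.0022, adjusted 0.0035 and 0.0099), was 0.44 without the farthest arrays and 0.35 and 0.36 within the record sets, where neither passed. In lung, Arntl had r = 0.32 and rho = 0.49 with Clock (permutation p = 0.0090 and 5.0e-05, adjusted 0.041 and 0.00068), which came to r = 0.28 (adjusted 0.11) and rho = 0.45 (adjusted 0.0040) without the farthest arrays and to r = 0.21 and 0.43 within the record sets. With Nr1d2 in lung r was 0.33 and rho 0.40 (permutation p = 0.0091 and 0.0017, adjusted 0.041 and 0.0092), then r = 0.30 (adjusted 0.11) and rho = 0.37 (adjusted 0.026) without the farthest arrays, and r = -0.34 and 0.34 within the record sets. Neither relation in lung passed within a record set. The adjusted permutation p of r was 0.29 and 0.32 for Clock and 0.091 and 0.38 for Nr1d2.

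Some relations of Arntl passed by r within 1 record set and not over both. In the first set these were Cry1 in lung at r = 0.64 (adjusted permutation p = 0.00081), against 0.18 over both sets and -0.16 in the later set. In the first set rho for Cry1 in lung was 0.49 (adjusted permutation p = 0.030). Within the first set in brain, Arntl ran against Per3 at r = -0.45 and against Cry2 at -0.46 (both adjusted permutation p = 0.027), against -0.08 and 0.25 over both sets. By rho, Per3 was at -0.46 (adjusted permutation p = 0.042), and Cry2 at -0.40 (0.087) did not pass. In the later set, of 19 eye arrays, Arntl in eye went with Per1 at r = 0.69 and against Nr1d2 at -0.69 (both adjusted permutation p = 0.016), against 0.31 and 0.28 over both sets, and Nr1d2 was at 0.35 in the first set. By rho neither passed in the later set, at 0.68 for Per1 (adjusted permutation p = 0.052) and -0.58 for Nr1d2 (0.14). The sign of r for Nr1d2 in eye thus differed between the record sets, as it did in lung.

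The same member was compared between tissues over arrays of equal group and number, 30 relations in all. The labels do not say that equal numbers are 1 animal. Within the first record set, Clock had r = 0.75 between brain and eye over 37 pairs (rho = 0.73, smallest permutation p of 1e-05 for both, adjusted 0.00010 for r), 0.61 between lung and brain over 38 (0.00055) and 0.60 between lung and eye over 37 (0.00010). Without the 2 farthest pairs these were 0.73, 0.60 and 0.51. Nr1d1 reached 0.67 and Dbp 0.69 between brain and eye, and Per1 0.62 between lung and brain. Over all 19937 genes the median r was 0.17 between brain and eye, 0.23 between lung and brain and 0.15 between lung and eye, and Clock stood at the 98.5th, 93.1st and 94.5th percentile of genes. Nr1d2 was at the 28.3rd percentile between brain and eye, with r = 0.02, so members differed widely in how far they moved together across tissues. Over both record sets the r of Clock between brain and eye was 0.29 over 55 pairs, that of Nr1d1 was 0.65 and that of Dbp was 0.32, or 0.17 without the 2 farthest pairs. Per1 between lung and brain was 0.25 over 57 pairs (adjusted permutation p = 0.090) over both record sets, so among these 4 relations that of Nr1d1 was about as large over both sets as within the first.

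The genes whose pattern was most like that of Per1 and Dbp were ranked by r after group and record-set means were subtracted. In lung, Per1 was most like Slc10a6 at 0.85, Klf9 at 0.81, Zhx3 at 0.80 and Hif3a at 0.75 over 60 arrays, and least like Meox2 at -0.65, Gpx8 at -0.64, Sstr2 at -0.64 and Glod4 at -0.62. In brain, Per1 was most like Abcg4 at 0.76, Snap91 at 0.76, Kifc2 at 0.75 and Ildr2 at 0.75, and least like Rbbp4 at -0.77, Dpm1 at -0.75, Anapc4 at -0.71 and Mettl9 at -0.70 over 58 arrays. In eye, Per1 was most like Casc3 at 0.71, Slc7a14 at 0.66, Rtn4rl1 at 0.64 and Slc38a1 at 0.63, and least like Gtf3a at -0.64, Gpx8 at -0.62, Rpl14 at -0.62 and Rpl6 at -0.62 over 56 arrays. The highest genes listed for Per1 differed between tissues, and Gpx8 was among the lowest in lung and in eye. How the genes listed in 1 tissue ranked in the others was not examined, so the lists do not show a difference between tissues.

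Dbp in eye was most like Plekhb1 at 0.88, Prnp at 0.85, the photoreceptor gene Prph2 at 0.84 and Aldoc at 0.83, and least like Uhrf2 at -0.83, Vamp4, Spred1 and Hspd1 at -0.82 each. In brain, Dbp was most like Cldn12 at 0.68, the small heat shock gene Cryab at 0.67, Pgap3 at 0.66 and Arpc1b at 0.65, and least like Nmt2 at -0.69, Cdk8 at -0.64, Smad1 and Lrrfip2 at -0.62 each. In lung, Dbp was most like Gm10461 at 0.69, Ptf1a at 0.68, Bean1 at 0.68 and Lrriq4 at 0.67, and least like Agtpbp1 at -0.66, Sos1 at -0.66, Ppm1b at -0.66 and Cpeb2 at -0.64. The highest r for Dbp was thus 0.88 in eye, against 0.69 in lung and 0.68 in brain. Dbp was far below its group in eye H21 replicate 9, H40 replicate 8 and N21 replicate 7, at 7.42, 7.48 and 7.37. These arrays also had a low correlation with the other eye arrays. The ranking was not repeated without them, so their part in the eye values was not tested.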

How the data were processed

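RNA of lung, brain and eye was hybridised to Affymetrix arrays from 10 ng of total RNA, per the labels' protocols, in a design of 62 mice. The extraction protocol in the labels names a gradient centrifugation and a blood RNA kit. The authors deposited 1 table of log2 values for 34760 probe sets, made with RMA per the submitters' processing notes; the RMA version is not given in the sources used here. The column medians differ between tissues, so levels are compared within a tissue only.

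From there, 21640 probe sets with 1 gene symbol were kept (1321 had several and 11799 none), 21553 were matched to RefSeq by Entrez ID, and the probe set of highest mean stood for each of 19937 genes. limma 3.58.1 in R 4.3.3 fitted 6 group means per tissue. All hypoxia minus all normoxia is the mean of 4 group means minus the mean of 2. Tests are two-sided, with Benjamini-Hochberg adjustment over all genes and a threshold of 0.05. The fit was tested on simulated data. Correlations used 100000 permutations in Python 3.11.15. The members and all lists were chosen with earlier results of these data known. Named beyond the members were called genes of the lists, and the 4 highest and 4 lowest r with Per1 and Dbp; others were chosen after their values were seen. Alternatives were array weights, renormalization, gene filters, sex (log2 Xist minus Y-linked genes), record set, replicate block and left-out arrays.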

Additional observations from a re-analysis of the deposited data

Results flagged for a closer look

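The change after hypoxia differed between tissues for Arntl, by 0.33 between lung and brain, and for Nr1d2, by -0.31 between lung and brain and by -0.38 between lung and eye, by the test of the difference itself (limma).

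Some arrays lay far from the rest of their group for a member. Of 130 groups of 4 to 10 arrays examined, 16 held such an array, and chance alone flags about 1 in 20. In lung, Clock was 6.14 in H21 replicate 1, against 8.22 to 8.78 in the others. Per1 in lung was 8.3 in N100 replicate 9 and 8.0 in N21 replicate 2, where the others reached 7.38 and 7.42.

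In brain, Cry2 was low in H21 replicate 8 at 7.64, in H40 replicate 10 at 7.76 and in N21 replicate 7 at 7.84, where the others started at 8.79, 8.64 and 8.67. Per1 was also low in brain H21 replicate 8, at 6.71, Dbp in brain H40 replicate 10, at 7.55, and Cry1 was high in brain N21 replicate 7, at 8.25. In eye, Dbp was low in H21 replicate 9 at 7.42, in H40 replicate 8 at 7.48 and in N21 replicate 7 at 7.37. Cry1 was high in eye H21 replicate 9, at 8.9, and Cry2 low in eye N21 replicate 7, at 7.34. Per3 in eye was 7.04 in H60 replicate 1 and 6.45 in N21 replicate 8. The brain and eye arrays named for Cry1, Cry2 and Dbp, and lung H21 replicate 1, were also among the 6 arrays per tissue whose correlation with the other arrays of their tissue was low.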

How the results depend on the processing

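In lung, the count of members called after all hypoxia, 6, was 1 within the first record set and 2 within the later one, and lay between 6 and 7 when each of the 60 arrays was left out. Arntl, Cry1, Cry2, Nr1d1 and Nr1d2 passed under every alternative run outside the single record sets, and none of these 5 changed sign. Per2 passed no longer without the low-correlation arrays (0.19, limma adjusted p = 0.12). Dbp passed with array weights (-0.22, 0.011) and without the low-correlation arrays (-0.22, 0.026), and Per3 with array weights (-0.16, 0.026). For H100 minus N100 in lung, the count of 2 became 4 with array weights, 0 within either record set, 0 with the array of another tissue's profile, 0 with only the groups compared and 1 with fat and muscle covariates. The count of 0 for H100 minus N21 became 1 with array weights and 1 in the later record set. For H21 minus N21 it became 3 with array weights and 2 without the dimmest 40% of genes, 2 with the record set as a block and 2 with the replicate block; for H60 minus N21 it became 2 in the later record set. In eye, H100 minus N100 gave 1 with array weights. Equal replicate numbers were not taken to pair samples, since the labels do not say so. Same-numbered arrays of different groups had a median r of 0.13 in lung, 0.13 in brain and 0.03 in eye. Differently numbered arrays had -0.02, -0.02 and -0.03. In lung 77 of 139 same-numbered pairs were over 0.1, against 433 of 1357 others, in brain 73 of 134 against 355 of 1265. In eye 52 of 131 were, against 332 of 1174. Low numbers lie in the first record set and high ones in the later, so these values do not show whether equal numbers mark pairs. Besides H21 minus N21, the replicate block moved 1 count, H100 minus N100 in lung, to 3. Of the 2 members that differed between lung and brain, and the 1 between lung and eye, 0 passed with the arrays of another tissue's profile. The correlation of Arntl with Nr1d2 in lung turned to -0.34, and that with Cry1 in brain to 0.32, within the first record set. The cause of these changes was not tested.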
